A study of Mus musculus with 4 samples.

Results

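The vascular endothelial growth factor (VEGF) system was followed here through 8 genes of macrophages given necrotic fat. They are the ligand genes Vegfa, Vegfb, Vegfc and Pgf, the receptor genes Flt1 and Kdr, and the neuropilin co-receptor genes Nrp1 and Nrp2. The members were chosen by symbol, and all 8 were found among the 17013 genes listed. Macrophages were grown with M-CSF from the bone marrow of wild-type male C57BL/6 mice, whose age is not given in the sources used here, and were seeded on porous inserts. Artificial necrotic bone fluid (aNBF), an extract of freeze-thawed bone and marrow, was added above the cells of both groups, and a preparation of digested, freeze-thawed abdominal fat was placed beneath them, in contact with the cells. In the fat control medium (Con) that preparation was its middle layer, and in the high-fat-containing medium (Fat) it was the top fat layer. RNA was taken 24 h after these additions. Poly(A) RNA was sequenced from 2 libraries per medium. Nothing in the labels says that the libraries of a medium came from separate animals or cultures, so the p-values measure the spread between these libraries, which may be technical.

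VEGF ligands are secreted dimers that make new vessels grow by acting on tyrosine kinase receptors of endothelial cells. VEGF-A binds the receptors encoded by Flt1 and Kdr, VEGF-B and placental growth factor (the product of Pgf) bind the Flt1 product, and VEGF-C mainly drives lymphatic vessel growth. Neuropilins lack a kinase domain and present VEGF and class 3 semaphorins to their signalling partners. Macrophages are known as a source of VEGF-A in hypoxic and healing tissue, and as blood-derived cells that themselves carry the Flt1 receptor.

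Between 33573852 and 40785872 reads per library fell on the listed genes. In CPM, the read count scaled by the authors to the size of each library, a single read was worth 0.0244 to 0.0295. Macrophage markers were high, with Csf1r, the M-CSF receptor, between 1477 and 1852 CPM and Cd68, a lysosomal glycoprotein of macrophages, between 778 and 892 CPM. Of the 9 macrophage markers examined, 3 were called lower in Fat (Fcgr1, C1qa and Mertk, with log2 fold changes from -0.88 to -0.31) and 0 higher. At an unadjusted limma p under 0.05, 6 were lower and 0 higher, beside 12.4% and 11.8% of all tested genes. edgeR's quasi-likelihood test called 3 lower, its exact test 4 and DESeq2 4, and each called 0 higher. Fat and Con were compared with limma on log2(CPM + 0.1) for the 12470 genes that reached 0.5 CPM in 2 or more libraries, and a gene was called at a Benjamini-Hochberg adjusted p under 0.05. For each gene, limma combined 2 residual degrees of freedom with a median of 5.42 drawn from the spread of all genes. Its p-values thus rest in larger part on the spread of other genes. The smallest two-sided p that exact permutation of these 4 libraries can give for a single gene is 0.333, so no such p is given.

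Of the 8 genes, 7 passed the filter, 1 was called higher in Fat (Vegfa) and 1 lower (Flt1). Across all tested genes 9.0% were called, 3.99% higher and 5.0% lower. Vegfb, Vegfc, Kdr, Nrp1 and Nrp2 were not called. Pgf was too low to test. The median log2 fold change was -0.01 over the 7 tested members and 0.01 over all tested genes. The media did not overlap in 4 of the 7 tested members, with Fat above Con in 2 (Vegfa and Kdr) and below it in 2 (Flt1 and Nrp2). The same held for 55.6% of all tested genes, with Fat above in 29.4% and below in 26.2%.

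The stretches directly upstream of the genes called are shown because transcription of Vegfa and Flt1 starts beside them. Each is the 250 bases before the RefSeq transcription start, 5′ to 3′, in GRCm38.p6, a different build from the GRCm39 named in the submitters' processing notes. RefSeq lists 2 starts for Vegfa, of which the outermost is shown, and 1 for Flt1. The Vegfa stretch is chr17:46032378-46032627 and the Flt1 stretch chr5:147726012-147726261, both on the minus strand. Capitals mark matches, on either strand, to 5 motifs: a hypoxia response core (CGTG after an A or a G), a cyclic AMP response element (TGACGTCA), the GC box (GGGCGG), the TATA box (TATAAA) and an interferon response element (GAAA, any 2 bases, then GAAA).
Vegfa: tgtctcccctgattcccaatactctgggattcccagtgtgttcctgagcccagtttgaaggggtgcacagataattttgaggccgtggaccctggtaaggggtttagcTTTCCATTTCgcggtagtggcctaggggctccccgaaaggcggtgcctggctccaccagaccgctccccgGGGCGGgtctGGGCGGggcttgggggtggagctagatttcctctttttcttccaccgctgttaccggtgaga
Flt1: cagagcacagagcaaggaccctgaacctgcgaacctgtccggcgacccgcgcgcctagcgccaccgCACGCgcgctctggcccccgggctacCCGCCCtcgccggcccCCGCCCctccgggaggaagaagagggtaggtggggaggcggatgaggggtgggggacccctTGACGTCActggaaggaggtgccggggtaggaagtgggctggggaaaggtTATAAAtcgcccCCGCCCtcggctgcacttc

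The Vegfa stretch held GC boxes that began 72 and 62 bases before the start, and a match to the interferon response element on the opposite strand 142 bases before it. In the Flt1 stretch there was a cyclic AMP response element 81 bases before the start, a TATA box 31 bases before it, 3 GC boxes and 1 hypoxia core. The Vegfa stretch held 0 hypoxia cores, but bases farther upstream were not searched for either gene. The GC content was 59.2% upstream of Vegfa and 70.4% upstream of Flt1. Of the 32851 RefSeq promoters cut to the same length, 32.7% held a GC box, 38.6% a hypoxia core, 12.4% a TATA box, 2.98% the interferon element and 1.55% the cyclic AMP element. These matches describe the letters only, and no overlap between them occurred in either stretch.

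Vegfa, the gene of the main vessel-forming ligand, measured 258 CPM in Con replicate 1, 237 CPM in Con replicate 2, 402 CPM in Fat replicate 1 and 439 CPM in Fat replicate 2. Both Fat libraries lay far above both Con libraries. The reads behind these values numbered 8766, 8896, 14998 and 18011. Mean levels were 248 ± 15.1 CPM in Con and 421 ± 26.5 CPM in Fat (SD, n = 2 each), a 1.70-fold rise and a difference of 173 CPM. On the log2 scale the rise was 0.76 (standard error 0.07, 95% interval 0.60 to 0.93, limma adjusted p = 0.00311), the 22nd smallest p among genes higher in Fat. Leaving out any single library gave values from 0.70 to 0.83. Without limma's mean-variance trend, the adjusted p was 0.0831, and of all genes 0.152% were then called higher and 0.0962% lower.

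The other ligand genes were not called, and the intervals of Vegfb and Vegfc lay below that of Vegfa. Vegfb, the gene of VEGF-B, a ligand abundant in heart and brown fat, was at 7.93 and 7.04 CPM in Con and at 6.64 and 8.20 CPM in Fat. The Fat values lay on either side of the Con values (log2 fold change -0.02, 95% interval -0.33 to 0.30, limma adjusted p = 0.959). Vegfc, the lymphatic growth factor gene, was at 1.89 and 2.35 CPM in Con and at 2.44 and 2.15 CPM in Fat. Its groups overlapped as well (log2 fold change 0.12, 95% interval -0.32 to 0.55, limma adjusted p = 0.758). The signs of both small differences turned under some alternatives, so neither has a direction. Pgf, the placental growth factor gene, had 13 and 19 reads in Con and 14 and 13 reads in Fat. These correspond to 0.383 and 0.506 CPM in Con and 0.375 and 0.317 CPM in Fat, and 1 library alone reached 0.5 CPM. The exact Poisson 95% intervals of the reads ran from 6.92 to 22.2 in Con replicate 1 and from 11.4 to 29.7 in Con replicate 2, and the counts of both Fat libraries lay inside them. The intervals reflect counting error alone, because the reads carry no molecular identifiers and can be copies of the same molecule.

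Per length, Vegfa made up nearly all of the VEGF ligand message. Its share of the summed TPM (reads scaled for gene length and library) of the 4 ligand genes was 89.3% and 89.0% in Con and 93.5% and 93.2% in Fat. The sum itself was 152 and 137 TPM in Con and 228 and 250 TPM in Fat. Vegfb followed with 8.92% and 8.60% in Con and 5.03% and 5.66% in Fat. Vegfc held between 1.01% and 1.95%, and Pgf at most 0.472%. The gene-level values do not separate the splice forms of Vegfa, of which GENCODE vM21 lists 8 protein-coding transcripts.

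**Figure D1:**
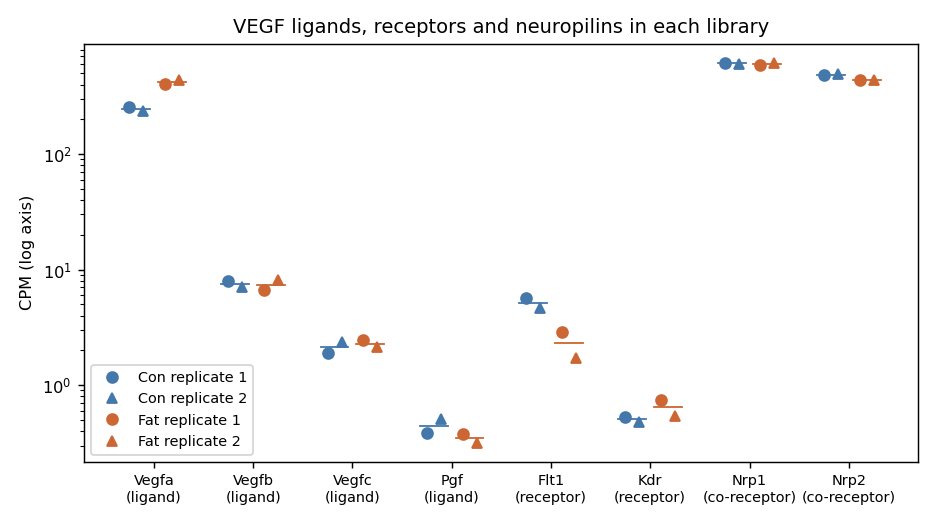
CPM of each member (log axis) in the 4 libraries, with circles for replicate 1, triangles for replicate 2 and a line at the mean of each medium. Vegfa lay between 237 and 258 CPM in Con and at 402 and 439 CPM in Fat, Flt1 at 5.63 and 4.69 CPM in Con and at 2.89 and 1.71 CPM in Fat, and Pgf and Kdr stayed under 1 CPM.

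Flt1, the gene of VEGF receptor 1, measured 5.63 CPM in Con replicate 1, 4.69 CPM in Con replicate 2, 2.89 CPM in Fat replicate 1 and 1.71 CPM in Fat replicate 2. All Fat values lay below all Con values, and the Fat libraries differed more from each other than the Con libraries did. These were low counts, with 191 and 176 reads in Con and 108 and 70 reads in Fat. Flt1 fell by 1.17 on the log2 scale (standard error 0.24, 95% interval -1.74 to -0.60, limma adjusted p = 0.0275), to 0.444 of its level in Con. Its mean was 5.16 ± 0.665 CPM in Con and 2.30 ± 0.839 CPM in Fat (SD, n = 2 each). The size rested in part on Fat replicate 2, without which the value was -0.81 (adjusted p = 0.0489), and it was -1.54 without Fat replicate 1. Flt1 was no longer called without Con replicate 1 (adjusted p = 0.081), with the TPM values (0.0691) or without the mean-variance trend (0.132). In the first and second of these fits 2.68% and 2.94% of genes were called lower. A minimum mean of 5 CPM, at which 5.32% were called lower, leaves Flt1 out. Reads of the full-length receptor and of its soluble form, which binds VEGF without signalling, are counted together. The 9 macrophage markers together stood at 36755 and 34625 CPM in Con and at 29018 and 27422 CPM in Fat. Most of each sum was Lyz2, at 28720 and 26819 CPM in Con and at 21516 and 20347 CPM in Fat. Lyz2 was not called (limma adjusted p = 0.209). Cd68 and Itgam had log2 fold changes of the other sign (0.09 and 0.07) and were not called. The part of macrophage RNA in the fall of Flt1 was not tested. In bulk RNA, fewer cells that carry a gene and less of its RNA per cell cannot be told apart.

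Kdr, the gene of the main signalling receptor of endothelial cells, was barely detected. It had 18 reads in each Con library and 28 and 22 reads in Fat, or 0.531 and 0.480 CPM and 0.750 and 0.537 CPM. The Fat values lay just above the Con values. The exact Poisson 95% interval was 10.7 to 28.4 reads for each Con library, 18.6 to 40.5 reads for Fat replicate 1 and 13.8 to 33.3 reads for Fat replicate 2, so the intervals of the media overlapped. Its log2 fold change of 0.28 had a 95% interval from -0.42 to 0.98 (limma adjusted p = 0.62), so a difference was not detectable at this depth. The value was 0.07 without Fat replicate 1 and 0.49 without Fat replicate 2. Per length, Flt1 stood 9.21-fold and 8.49-fold above Kdr in Con and 3.35-fold and 2.76-fold above it in Fat.

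The receptor genes are best known from endothelial cells, and 9 of 10 endothelial markers were listed. Their summed level was 41.4 and 41.1 CPM in Con and 34.9 and 37.9 CPM in Fat. Most of that sum was Vwf, the von Willebrand factor gene, at 34.3 and 35.6 CPM in Con and 26.5 and 28.8 CPM in Fat, and it was called lower (adjusted p = 0.0289). Pecam1, the gene of the adhesion molecule CD31 of endothelium and leukocytes, was at 5.57 and 3.49 CPM in Con and at 5.71 and 6.61 CPM in Fat, above Con in both, and was not called (log2 fold change 0.47, adjusted p = 0.237). Cdh5, which encodes VE-cadherin, the junction protein that defines endothelium, had at most 0.586 CPM, the angiopoietin receptor gene Tek at most 0.107 CPM, and 6 of the 9 markers stayed under 1 CPM in every library. Emcn had 0 reads in Fat replicate 1, as did Robo4, and Tek had 0 reads in Con replicate 1. Esam, an adhesion molecule of endothelium and platelets, was called higher (0.295 and 0.426 CPM in Con, 1.39 and 1.22 CPM in Fat, adjusted p = 0.0163) but not by DESeq2, and it passed the filter through the Fat libraries alone. The part of endothelial RNA in the fall of Flt1 was not tested.

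**Figure D2:**
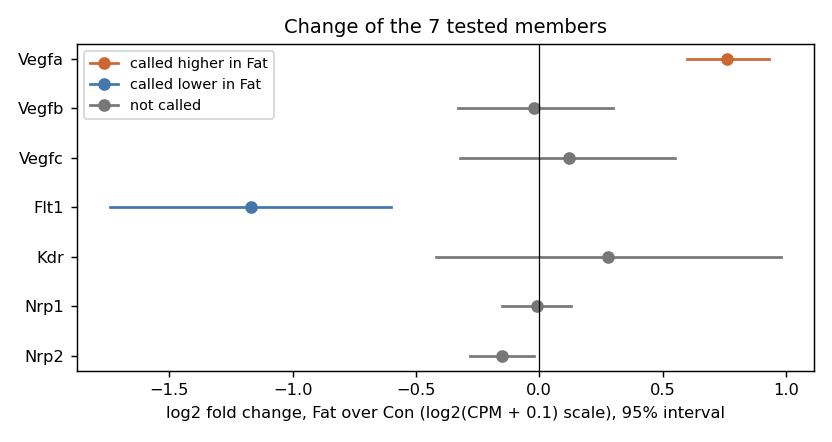
Log2 fold change of Fat over Con for the 7 members that passed the filter, with limma's 95% interval as a bar. The interval of Vegfa (0.60 to 0.93) lies above 0 and that of Flt1 (-1.74 to -0.60) below it, and the narrowest intervals are those of Nrp1 (-0.15 to 0.13) and Nrp2 (-0.28 to -0.02).

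Nrp1, the neuropilin that serves VEGF-A in blood vessels, was the most abundant member at 613 and 604 CPM in Con and 591 and 615 CPM in Fat. The Fat libraries lay on either side of the Con libraries, and the log2 fold change was -0.01 (95% interval -0.15 to 0.13, limma adjusted p = 0.929). A change of more than 0.15 in either direction thus lies outside the interval. Nrp2, the neuropilin of lymphatic vessels, was at 487 and 489 CPM in Con and at 441 and 437 CPM in Fat. Both Fat libraries were lower, by little. The log2 fold change was -0.15 (standard error 0.05, 95% interval -0.28 to -0.02), with an unadjusted p of 0.0269 and a limma adjusted p of 0.144, so it was not called. Its sign held under all 14 alternatives, between -0.16 and -0.12, and no alternative called it (adjusted p from 0.102 to 0.45). The Nrp1 to Nrp2 ratio, per length, was 1.73 and 1.70 in Con and 1.84 and 1.93 in Fat. GENCODE vM21 places Gm29083 (opposite strand) and Gm37121 (same strand) over Nrp2, and the kit marked strand, but the strand setting of the counting is not given in the sources used here.

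**Figure D3:**
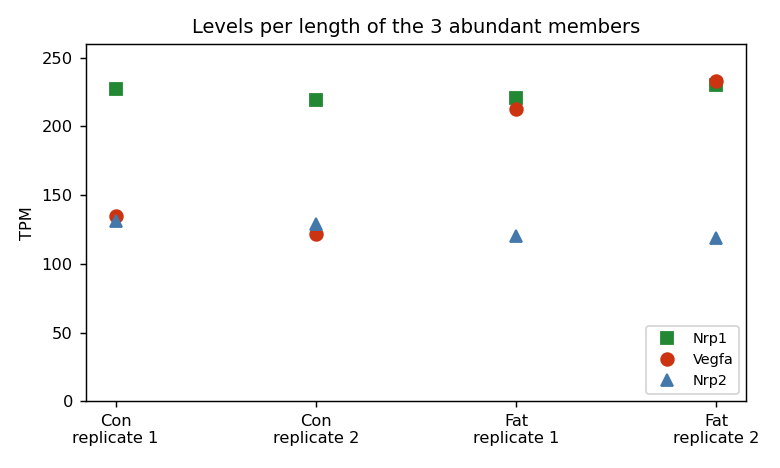
TPM (reads scaled for gene length) of Nrp1, Vegfa and Nrp2 in each library. Vegfa lies beside Nrp2 in Con (135 and 122 TPM against 131 and 129 TPM) and beside Nrp1 in Fat (213 and 233 TPM against 221 and 230 TPM).

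In order of mean TPM over the 4 libraries the members were Nrp1 (224 TPM), Vegfa (176 TPM), Nrp2 (125 TPM), Vegfb (12.7 TPM), Vegfc (2.57 TPM), Flt1 (1.30 TPM), Pgf (0.514 TPM) and Kdr (0.231 TPM). The ranges of neighbours overlapped between Nrp1 and Vegfa, between Vegfa and Nrp2, and between Flt1 and Pgf, and the other neighbours were apart in all libraries. Vegfa changed its place between the media. It matched Nrp2 in Con, where neither gene was higher in both libraries, and Nrp1 in Fat, with a Vegfa to Nrp1 ratio of 0.598 and 0.557 in Con and 0.964 and 1.01 in Fat. Nrp1, Vegfa and Nrp2 stood above 95.4%, 93.8% and 91.1% of the tested genes in TPM, whereas Flt1 stood above 9.55% and Kdr above 0.553%. By mean CPM, without scaling for length, Nrp2 came before Vegfa, Flt1 before Vegfc and Kdr before Pgf, but the ranges overlapped within each of these pairs.

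The tested genes whose profile over the 4 libraries was nearest to that of Vegfa were Ralgps1, which encodes an exchange factor for Ral GTPases, Slc5a3, the myo-inositol transporter gene, and Gm20324. Likeness was the Euclidean distance between log2(CPM + 0.1) values centred on each gene's mean. The distances were 0.049, 0.0539 and 0.0603. Ralgps1 was at 14.3 and 13.2 CPM in Con and at 22.7 and 23.7 CPM in Fat, and Slc5a3 at 15.5 and 14 CPM in Con and at 24.5 and 27.3 CPM in Fat. Gm20324 had between 11 and 26 reads and was not called (adjusted p = 0.203). Nearest to Flt1 were Mnda, of the interferon-inducible Ifi200 family, Il18bp, which encodes the secreted inhibitor of interleukin-18, and Gm4070, at distances of 0.122, 0.138 and 0.174. Mnda was at 47.0 and 36.5 CPM in Con and at 21.7 and 13.9 CPM in Fat, and Il18bp at 75.8 and 66.1 CPM in Con and at 37.2 and 25.5 CPM in Fat. Ifi200 genes are alike in sequence, so the reads of Mnda may be shared with other genes of that family. With 4 libraries, many genes can lie near any profile, and no test goes with these distances.

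Other genes of the VEGF system were taken from 7 lists, and their calls were read against the 3.99% and 5.0% of tested genes that limma called higher and lower. The corresponding shares were 3.93% and 5.20% by edgeR's quasi-likelihood test, 5.72% and 7.45% by its exact test and 3.69% and 4.81% by DESeq2. At an unadjusted limma p under 0.05, 11.8% of tested genes were higher and 12.4% lower. Of the VEGF family outside the members, Flt4, the VEGF-C receptor gene, had at most 0.413 CPM and was not tested. Figf, the gene of VEGF-D, was at 0.324 and 0.373 CPM in Con and at 0.563 and 0.537 CPM in Fat, passed the filter through the Fat libraries alone and was not called (log2 fold change 0.54, limma adjusted p = 0.345), nor by edgeR or DESeq2.

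Vegfa is a textbook target of the hypoxia-inducible transcription factors, whose part in its rise here was not tested. Of 16 hypoxia genes 8 were called higher and 0 lower in Fat. At an unadjusted limma p under 0.05 the counts were also 8 and 0, as they were at the adjusted threshold by edgeR's quasi-likelihood test, edgeR's exact test and DESeq2. The median log2 fold change of the list was 0.21, and it was 0.06 where the mean had to reach 5 CPM. The largest rise was that of Ankrd37, an ankyrin repeat gene and hypoxia marker, from 1.80 and 1.68 CPM in Con to 6.14 and 6.95 CPM in Fat (log2 fold change 1.85, limma adjusted p = 0.0025). Next came Egln3, the gene of a prolyl hydroxylase that marks the hypoxia-inducible factors for breakdown (1.80 and 2.21 CPM in Con, 4.58 and 5.61 CPM in Fat, log2 fold change 1.30, adjusted p = 0.00726). Adm, the gene of the vessel-active peptide adrenomedullin, rose by 0.97 (adjusted p = 0.0243), and Slc2a1, the glucose transporter gene, rose by 0.83 from 173 and 195 CPM to 316 and 339 CPM (adjusted p = 0.00286). The remaining genes called rose by 0.30 to 0.49 on the log2 scale. The factor genes themselves, named here after their values were seen, were not called, with log2 fold changes of -0.04 for Hif1a, -0.04 for Epas1 and 0.11 for Arnt. Also not called were Car9 (0.05), Ndrg1 (-0.09), Egln2 (0.05), Vhl (0.06) and Hif1an (0.02). Without Fat replicate 2 the count called higher was 5, beside 1.73% of all genes, with Adm at an adjusted p of 0.127, which was 0.0559 without Con replicate 2. Without the mean-variance trend 1 gene of the list was called, and 5 of 13 were called higher where the mean had to reach 5 CPM, beside 4.18% of all genes.

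Neuropilin partners were represented by 12 semaphorin and plexin genes, of which 8 were tested, 1 was called higher and 0 lower (4 and 1 at an unadjusted limma p under 0.05). Their median log2 fold change was 0.29, and it was 0.11 without the filter and 0.14 over the 4 genes whose mean reached 5 CPM. Sema3e, the gene of a semaphorin that repels growing vessels through plexin D1 without needing a neuropilin, was at 1.12 and 1.20 CPM in Con and at 2.63 and 2.05 CPM in Fat (log2 fold change 0.94, limma adjusted p = 0.032). That call was lost without Con replicate 1 (adjusted p = 0.0947), without Con replicate 2 (0.0523) or without Fat replicate 1 (0.13). edgeR's quasi-likelihood test called 1 gene of the list higher, its exact test 2 and DESeq2 0, and none of these called a gene lower.

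Among 10 genes of the related PDGF and angiopoietin systems, 7 were tested, 2 were called higher and 1 lower, with a median of 0.26. That median depended on single libraries, being 0.03 without Con replicate 1 and 0.48 without Con replicate 2, and it was -0.09 where the mean had to reach 5 CPM. By edgeR's quasi-likelihood test 2 genes of the list were called higher and 1 lower. The counts were 3 and 2 by its exact test and 1 and 1 by DESeq2. Angpt2, whose product opposes Tie2 signalling in vessels, was at 2.71 and 3.28 CPM in Con and at 4.63 and 4.66 CPM in Fat (log2 fold change 0.62, adjusted p = 0.0437). Pdgfa, a growth factor gene for mesenchymal cells, was at 8.93 and 10 CPM in Con and at 12.3 and 13.2 CPM in Fat (log2 fold change 0.42, adjusted p = 0.0425). DESeq2 called neither Angpt2 (adjusted p = 0.109) nor Pdgfa (0.0774). Pdgfc, its relative, fell by 0.40 on the log2 scale from 27.6 and 25.5 CPM to 19.9 and 20.3 CPM (adjusted p = 0.0201). Each of these calls was lost without Con replicate 1 (adjusted p = 0.173, 0.166 and 0.0824), without Fat replicate 1 (0.102, 0.0653 and 0.0523) and without Fat replicate 2 (0.147, 0.19 and 0.0586), in the order Angpt2, Pdgfa, Pdgfc.

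The list of proteins that process or bind VEGF ligands outside the cell held 14 genes, of which 11 were tested. Of these 1 was called higher and 3 were called lower, with a median of 0.06 (0.01 to 0.15 with a library left out). Higher and lower calls numbered 1 and 3 by edgeR's quasi-likelihood test, 3 and 3 by its exact test and 1 and 2 by DESeq2. Hpse, the gene of heparanase, which cuts the heparan sulfate that holds VEGF in the matrix, was at 162 and 148 CPM in Con and at 111 and 108 CPM in Fat (log2 fold change -0.50, adjusted p = 0.00553). Ccbe1, needed for the processing of VEGF-C, fell by 0.29 (adjusted p = 0.0457) but was not called by DESeq2 (adjusted p = 0.0535). Ctgf, the gene of a matrix protein that binds VEGF-A, fell by 0.26 (limma adjusted p = 0.0493). Adamts1, the gene of a matrix protease that also binds VEGF-A, was at 9.05 and 10.4 CPM in Con and at 19.3 and 13.2 CPM in Fat (log2 fold change 0.71, adjusted p = 0.047), and the difference was 0.43 without Fat replicate 1 and 0.98 without Fat replicate 2. Without Con replicate 1 the adjusted p was 0.194 for Ccbe1, 0.109 for Ctgf and 0.117 for Adamts1, and without Fat replicate 1 it was 0.133, 0.202 and 0.0957. Ctgf was not called without Con replicate 2 either (0.0946), nor Ccbe1 without Fat replicate 2 (0.128).

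Of 5 genes for RNA-binding proteins that control Vegfa mRNA, 0 were called (2 higher and 0 lower at an unadjusted limma p under 0.05), and edgeR's quasi-likelihood test, its exact test and DESeq2 also called 0. Zfp36, whose product tristetraprolin speeds the decay of such mRNA, had the largest difference, at 104 and 121 CPM in Con and 125 and 149 CPM in Fat (log2 fold change 0.29, limma adjusted p = 0.132). With a library left out, it was called at 0.40 without Con replicate 2 (adjusted p = 0.0331) and at 0.41 without Fat replicate 1 (0.0367), and it was 0.17 without Con replicate 1 and 0.16 without Fat replicate 2. Of 21 genes of VEGF receptor signalling, limma called 0, while 1 was higher and 3 were lower at an unadjusted p under 0.05. edgeR's quasi-likelihood test called 0 of them, its exact test 2 lower and DESeq2 1 lower. The median over the signalling genes was 0.01, as over all tested genes, and the largest difference was that of Sh2d2a, an adaptor gene for Kdr signalling, at -0.47 (limma adjusted p = 0.252). Without Con replicate 2, 2 signalling genes were called lower, beside 4.91% of all genes, and without Fat replicate 1, 1 was, beside 4.68%.

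**Figure D4:**
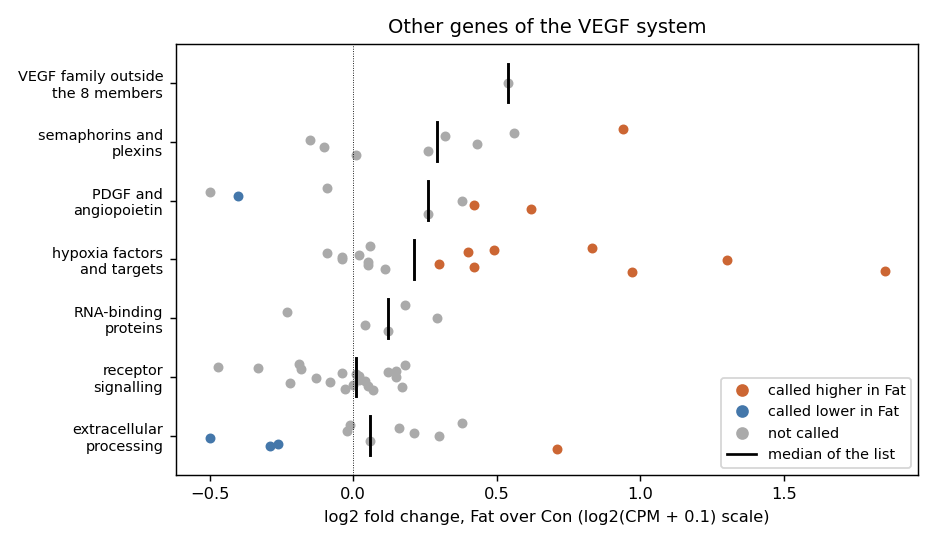
Log2 fold change of Fat over Con for every tested gene of the 7 lists, 1 point per gene, with a black line at the median of each list. In the hypoxia list 8 of 16 genes were called higher, up to 1.85 for Ankrd37. The 21 receptor signalling genes have a median of 0.01, with 0 called by limma. At an unadjusted limma p under 0.05, 1 of them was higher and 3 were lower, beside 11.8% and 12.4% of all tested genes.

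Adipocytes, the fat-storing cells of fat tissue, also make VEGF-A, and adipocyte transcripts moved with the medium. The cell makeup of the fat preparation is not given in the sources used here. The summed level of 10 adipocyte markers was 0.177 and 0.187 CPM in Con and 11.9 and 6.17 CPM in Fat. Of these markers 7 and 5 had 0 reads in Con replicates 1 and 2, and 1 had 0 reads in each Fat library. Only 2 of the 10 were tested, and both passed the filter through the Fat libraries alone. The other 8 stayed under 1 CPM in every library. Adipoq, the adiponectin gene, was at 0 reads in Con and at 0.750 and 0.341 CPM in Fat, and Car3, a carbonic anhydrase gene abundant in fat, at 7.21 and 3.39 CPM in Fat. Car3 made up most of the sum in Fat. From Fat replicate 1 to Fat replicate 2 the sum went from 11.9 to 6.17 CPM, and Vegfa from 402 to 439 CPM. The part of adipocyte RNA in the rise of Vegfa was not tested.

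Fibroblast and pericyte markers summed to 631 and 658 CPM in Con and to 529 and 676 CPM in Fat, led by collagen genes. Of 6 tested, limma called 1 lower (Dcn, the decorin gene, adjusted p = 0.0358), beside 5.0% of all tested genes. At an unadjusted limma p under 0.05, 3 were lower, beside 12.4%. By edgeR's quasi-likelihood test 1 was called lower, by its exact test 2 and by DESeq2 0, and each called 0 higher. Markers of neutrophils and mast cells summed to 285 and 250 CPM in Con and 246 and 251 CPM in Fat. Lymphocyte markers summed to between 16.5 and 22 CPM and dendritic cell markers to between 8.20 and 16.9 CPM, with the lowest values in Fat libraries. In these last 3 lists limma and edgeR's quasi-likelihood test called 0 of 14 tested genes, while 4 were lower at an unadjusted limma p under 0.05, 3 by edgeR's exact test and 1 by DESeq2. The shares of all tested genes that were lower by these 3 rules were 12.4%, 7.45% and 4.81%.

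**Figure D5:**
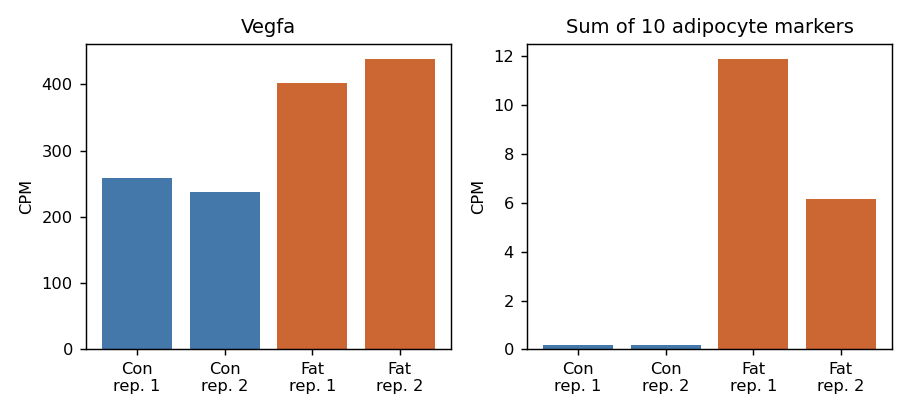
CPM of Vegfa (left) and the summed CPM of 10 adipocyte markers (right) in each library, with bars from 0 and different scales. Both were higher in Fat than in Con, with Vegfa at 402 and 439 CPM and the adipocyte sum at 11.9 and 6.17 CPM in Fat replicates 1 and 2.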

How the data were processed

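The authors counted single reads on genes and deposited CPM values (reads scaled to the library's total and by a further factor per library) and TPM values, which the authors also scaled for gene length. The build per the submitters' processing notes is GRCm39, and the aligner, counter and annotation are not given in the sources used here. Samples were grouped by their titles. Dividing CPM by the worth of 1 read gave whole reads (within 0.01 reads, 100% of 68052 values), which served as recovered reads. The study's methods name edgeR. Since the files hold CPM, the two-sided test here was that of limma 3.58.1 (R 4.3.3), with log2(CPM + 0.1) as input, over 12470 genes, and fold changes on this scale understate changes of low genes. Between replicates, reads per gene varied 12.2 times (Con) and 11.9 times (Fat) as much as counting alone gives, so no library was a copy of another.

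The members and lists were chosen with earlier results of these data known, so their calls are not independent evidence. Named genes are the 8 members, up to 4 called genes per list and direction (else the largest difference) and the 3 nearest profiles of each called member. List genes were matched by symbol, with Figf for Vegfd and Emr1 for Adgre1. Alternatives changed the pseudocount to 1 CPM, dropped the filter or raised it to a mean of 5 CPM, took TPM for the same genes, scaled by median ratios, blocked on the replicate number, left out the mean-variance trend or 1 library at a time, or used both edgeR 4.0.16 tests (quasi-likelihood, exact) or DESeq2 1.42.0 on recovered reads. The tests were run on simulated counts first. Promoters come from RefSeq (GRCm38.p6) and were listed for all 8 members. Python 3.11.15, pandas 2.3.3 and matplotlib 3.10.9 made tables and figures.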

Additional observations from a re-analysis of the deposited data

How the results depend on the processing

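Of the members, Vegfa kept its call under 13 of 14 alternatives and Flt1 under 10 of 13 (it has no value where a mean of at least 5 CPM is required). The count called higher was 0 without the mean-variance trend (Vegfa 0.76, adjusted p = 0.0831). The count called lower was 0 with that filter, with the TPM values (Flt1 -1.08, adjusted p = 0.0691), without the trend (Flt1 -1.17, adjusted p = 0.132) and without Con replicate 1 (Flt1 -1.04), and with each library left out it ranged from 0 to 1. Differences near 0 turned sign with the TPM values (Vegfb 0.01, Nrp1 0.02). With each library left out, log2 fold changes ranged from 0.70 to 0.83 for Vegfa, from -1.54 to -0.81 for Flt1, from -0.17 to 0.13 for Vegfb (0.07 without Con replicate 1, 0.13 without Fat replicate 1), from -0.03 to 0.27 for Vegfc (-0.03 without Con replicate 1) and from -0.04 to 0.02 for Nrp1 (0.02 without Fat replicate 1). Among all 12470 genes, 1122 were called, 31 without the trend and 529 to 1131 with each library left out, the fewest without Fat replicate 2 and 666 without Con replicate 1. The causes were not tested.

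Blocking on the replicate number (replicate block) called 2520 of the 12470 genes, and the members called were again Vegfa (adjusted p = 8.88e-11) and Flt1 (adjusted p = 2.72e-06). Among the lists, the block called 2 of 5 RNA-binding genes higher (Zfp36 at an adjusted p of 0.000217). Of 21 signalling genes it called 1 higher and 4 lower, and of 8 semaphorin and plexin genes 4 higher. Of 7 PDGF and angiopoietin genes it called 3 higher and 2 lower, and of 11 extracellular genes 4 higher and 3 lower. The hypoxia list stayed at 8 of 16 higher and 0 lower. These counts stand beside the 2520 genes that the block called in all. That total is not split by direction, so no direction is read from the block's counts. The labels tie the numbers to no shared animal, day or batch. Deviations from the group means correlated at 0.20 between libraries of the same number, over the tested genes. Over those with a mean of at least 5 CPM the correlation was 0.339. The block leaves each gene 1 residual degree of freedom, to which limma adds a median of 28.4 drawn from the spread of all genes. The block's small p-values thus rest mostly on the spread of other genes. For the named genes of the lists, 149 values under the alternatives kept direction and side of the threshold, 51 kept the direction and lost the call, and 3 gained one. At this depth, Kdr and Pgf (at most 28 reads per library) limit what can be seen.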
